A study of Mus musculus with 6 samples.

Results

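Sox10 and 5 genes of Schwann cells and their precursors, Cdh19, Mbp, S100b, Ngfr and Foxd3, were followed in sorted mammary basal cells of mice. The 6 genes were chosen by name from the 23337 genes listed in the count files, with their knockout and wild-type levels already known, so those levels are given as a description. All 6 genes were listed, and all 6 passed the filter on low counts, as did 13925 genes in all. Foxd3 (1 and 2 wild-type counts) and S100b (23 and 5) cleared that filter through the knockout libraries.

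Messenger RNA was sequenced from 4 libraries of Vim knockout mice, homozygous for the allele labelled Vimtm1Cba, and from 2 libraries of wild-type mice, labelled Vimwt/wt. Both groups were 15 weeks old and of the mixed background 129/Sv X C57BL/6, and each library pooled cells of 2 to 3 mice. The cells were sorted as live, negative for CD45 and CD31, low for CD24 and high for CD49f, which sets aside leukocytes and endothelium but uses no marker against glia. The day codes in the file names place Vim KO 1, Vim KO 2 and WT 1 in experiment 1, and Vim KO 3, Vim KO 4 and WT 2 in experiment 2.

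SOX10 is a transcription factor of the SOX family, best known from the neural crest, where it specifies glia and melanocytes and is kept on in Schwann cells throughout life. In the mammary gland it is also made by basal cells and by luminal progenitors, so its RNA there does not by itself mark nerve. In Schwann cells SOX10 acts with EGR2 to switch on myelin genes such as Mbp, while Cdh19, Ngfr and Foxd3 belong to Schwann cell precursors and non-myelinating cells.

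Total counts ran from 25347967 to 31200622 per library. Vim was at 105 ± 8.96 CPM (SD, n = 4) in the Vim KO libraries and 228 ± 18.5 CPM (SD, n = 2) in the WT libraries, where CPM is the count scaled to library size with TMM factors. The 12 listed basal markers, among them Krt14, Krt17 and Trp63, had a summed level of 9379 to 11247 CPM per kilobase of exon in the Vim KO libraries and 10370 to 11110 in the WT libraries. Markers of other cell types were present. Summed levels were 1303 to 1753 CPM per kilobase in Vim KO and 1395 to 1735 in WT for 9 luminal progenitor markers, and 95.03 to 171 in Vim KO and 91.3 to 137 in WT for 8 hormone-sensing luminal markers. They were 140 to 179 in Vim KO and 94.6 to 101 in WT for 7 pericyte markers, and 41.4 to 59.9 in Vim KO and 52.9 to 57.2 in WT for 10 fibroblast markers. Most of the pericyte sum was Mcam, at 134 to 172 in Vim KO and 84.8 and 95.1 in WT. Of the 7 pericyte markers 1 had a log2 fold change above 0 and 6 below, with a median of -0.43. For 9 leukocyte markers the summed levels were 82.0 to 127 in Vim KO and 108 to 128 in WT. For 7 adipocyte markers they were 8.68 to 13.8 in Vim KO and 18.6 to 67.2 in WT. Single genes made most of these other sums too. Per kilobase, Lcn2 was at 1117 to 1569 CPM over the libraries among luminal progenitor markers, and Areg at 59.2 to 133 among hormone-sensing ones. Dcn was at 26.4 to 42.6 among fibroblast markers, Cd74 at 55.9 to 96.7 among leukocyte markers and Fabp4 at 8.10 to 66.6 among adipocyte markers. The sums are therefore no measure of how many such cells were present. The part of these other cell types in the results was not tested. Melanocyte and neuron markers were the lowest lists. Of 10 melanocyte markers, Tyr, Mlana and Gpr143 had no count in any library, and their summed level was 0.374 to 0.513 CPM per kilobase in Vim KO and 0.542 to 0.556 in WT. Of 14 neuron markers Elavl4 had no count, and their summed level was 3.505 to 5.47 CPM per kilobase in Vim KO and 5.09 to 7.58 in WT.

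Per kilobase of exon the 6 genes covered a wide span of levels. Averaged over the 6 libraries, Sox10 was at 53.1 CPM per kilobase, Mbp at 14.6, Ngfr at 12.9, Cdh19 at 2.60, S100b at 0.481 and Foxd3 at 0.206. Mbp ran from 10.1 to 18.6 over the libraries and Ngfr from 6.67 to 20.2, so these neighbours did not differ beyond their spread. The ranges of S100b (0.116 to 0.880) and Foxd3 (0.0128 to 0.580) overlapped as well, but within each library S100b was the higher of these 2. Sox10, at 37.6 to 73.5, lay above every value of the other genes.

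Sox10 (chromosome 15, 79154913 to 79164490, minus strand, mm10) was abundant in both genotypes. It had 118, 199, 148 and 128 CPM in Vim KO 1 to 4, against 168 and 102 CPM in WT 1 and WT 2. The highest library was Vim KO 2 and the lowest WT 2, with WT 1 second, so the genotypes overlapped. The means were 149 ± 36.2 CPM (SD, n = 4) in Vim KO and 135 ± 46.7 CPM (SD, n = 2) in WT, a log2 fold change of 0.14 (SE 0.25). Within experiment 1 the log2 difference between Vim KO and WT was -0.13, and within experiment 2 it was 0.44. Without WT 1 the log2 fold change was 0.56, without WT 2 it was -0.18 and without Vim KO 2 it was -0.02, so its sign rested on single libraries.

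Cdh19 (chromosome 1, 110889195 to 110977372, minus strand), which encodes a cadherin of Schwann cell precursors and Schwann cells, was the member with the widest gap between genotypes at a usable depth. It had 256, 293, 547 and 154 counts in Vim KO 1 to 4, against 74 and 34 counts in WT 1 and WT 2. These were 8.05, 11.6, 18.4 and 6.06 CPM in Vim KO and 2.25 and 1.31 CPM in WT, and the groups did not overlap. In bulk RNA, more cells of a type and more RNA per cell cannot be told apart, and the part that nerve tissue in the sorted fraction has in these values was not tested. The log2 fold change was 2.62 (SE 0.50), and the difference was 2.07 within experiment 1 and 2.95 within experiment 2. Between the highest library, Vim KO 3, and the lowest, WT 2, the level of Cdh19 differed 14.04-fold, while that of Sox10 differed 1.96-fold between its own extremes.

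Foxd3 (chromosome 4, 99656299 to 99658671, plus strand), a forkhead transcription factor that keeps neural crest cells and early glial precursors undifferentiated, was near the limit of detection. It had 11, 11, 41 and 17 counts in Vim KO 1 to 4, against 1 and 2 counts in WT 1 and WT 2. Over each group this was 80 counts in Vim KO and 3 in WT, a depth-scaled ratio of 13.98 with a 95% counting interval of 4.61 to 69.2, which covers counting error only. The groups did not overlap, and Vim KO 3 was the highest library, as for Cdh19. The fitted log2 fold change was 3.67 (SE 0.92).

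S100b (chromosome 10, 76253836 to 76261319, plus strand), a calcium-binding protein widely used as a Schwann cell stain, was also low. It had 16, 37, 33 and 21 counts in Vim KO 1 to 4, against 23 and 5 counts in WT 1 and WT 2. Vim KO 1 lay below WT 1, so the groups overlapped. The log2 fold change was 1.08 (SE 0.63), with 0.28 within experiment 1 and 1.97 within experiment 2. It was 2.33 without WT 1 and 0.47 without WT 2.

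Mbp (chromosome 18, 82475123 to 82585637, plus strand) encodes myelin basic protein, and the same locus also gives the Golli transcripts, which are made outside myelin; counts per gene do not separate the transcripts. Mbp had 84.9, 111, 125 and 117 CPM in Vim KO 1 to 4, against 67.7 and 84.1 CPM in WT 1 and WT 2. The groups did not overlap, but Vim KO 1 and WT 2 were less than 1 CPM apart. The log2 fold change was 0.53 (SE 0.17), at 0.52 within experiment 1 and 0.53 within experiment 2.

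Ngfr (chromosome 11, 95568821 to 95587698, minus strand) encodes p75, the low-affinity neurotrophin receptor, which marks immature and non-myelinating Schwann cells and is also known from human breast myoepithelium. It had 49.8, 68.8, 37.3 and 22.7 CPM in Vim KO 1 to 4, against 40.3 and 45.7 CPM in WT 1 and WT 2. Both Vim KO libraries of experiment 1 lay above both WT libraries and both of experiment 2 lay below them. The means were 44.7 ± 19.5 CPM (SD, n = 4) in Vim KO and 43.0 ± 3.78 CPM (SD, n = 2) in WT, a log2 fold change of 0.06 (SE 0.36).

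**Figure D1:**
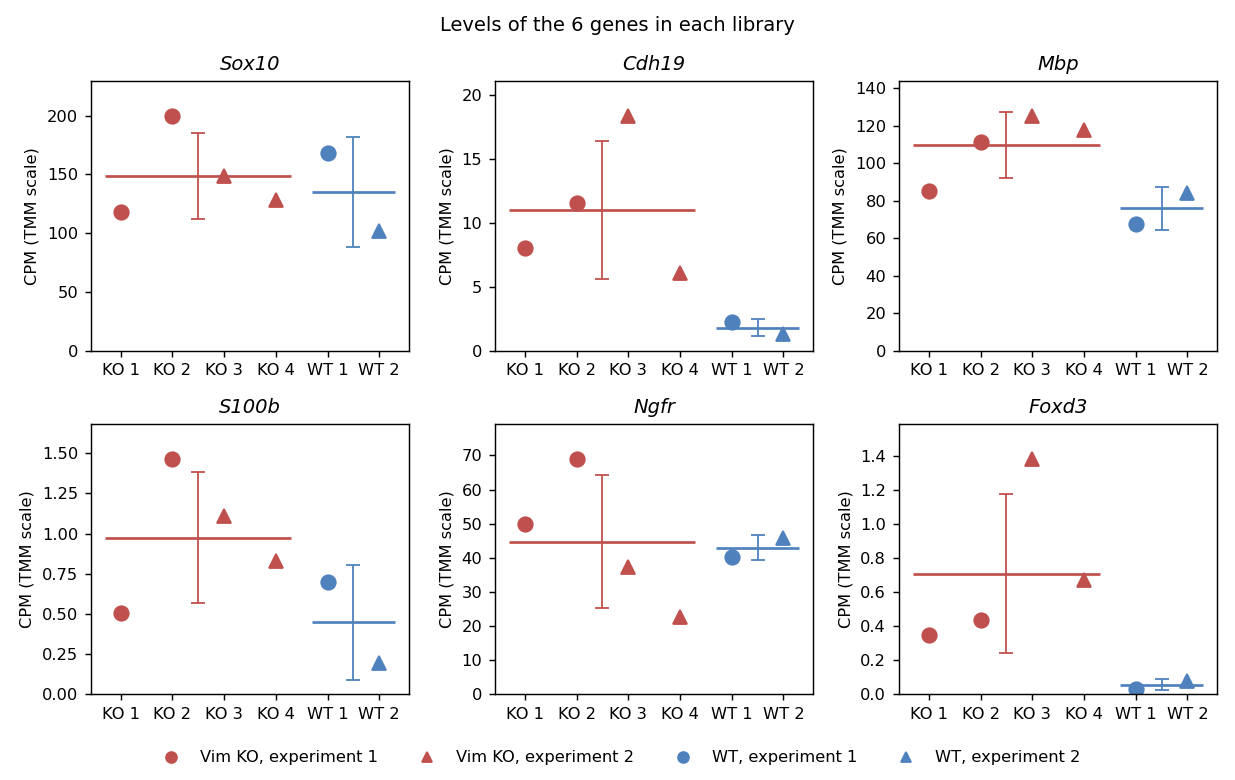
Level of each of the 6 genes in every library (vertical axis, CPM on the TMM scale; horizontal axis, library; circles are experiment 1 and triangles experiment 2; lines are group means and bars are SD, n = 4 Vim KO and 2 WT). Cdh19, Mbp and Foxd3 were higher in all 4 Vim KO libraries than in both WT libraries, while Sox10, S100b and Ngfr overlapped between the genotypes.

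In edgeR's quasi-likelihood test with genotype as its term, 0 of the 6 genes were among the 11 genes called at a Benjamini-Hochberg adjusted p under 0.05, which are 0.079% of those tested. At an unadjusted p under 0.05 there were 3 of the 6, Cdh19, Mbp and Foxd3, and 8.57% of all genes. With experiment as a replicate block Foxd3 was the 1 gene of the 6 called, where 1.56% of genes were called, and DESeq2 called Cdh19 and Foxd3, where 1.92% were called. All 4 Vim KO libraries lay above both WT libraries for 3 of the 6 genes, as they did for 7.6% of the genes tested. Since this contrast was known when the genes were chosen, nothing is read from these counts.

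The difference between experiments was not used in the choice. The test of experiment with genotype in the model called 0 of the 6 genes and 6.43% of all genes. At an unadjusted p under 0.05 there were 2 of the 6, Mbp and Foxd3, against 23.5% of all genes, and DESeq2 also called 0 of the 6. The log2 difference, experiment 2 minus experiment 1, was -0.37 for Sox10 (SE 0.21, edgeR adjusted p = 0.345), -0.59 for Ngfr (SE 0.33, adjusted p = 0.351) and 0.05 for Cdh19 (SE 0.47, adjusted p = 0.965). Without Vim KO 1, where 1838 genes were called, Sox10 was lower in experiment 2 by this test (-0.61, edgeR adjusted p = 0.00406). Without Vim KO 2, where 913 were called, Mbp was higher in it (0.43, adjusted p = 0.0333). With another Vim KO library left out instead, the edgeR adjusted p was 0.317 to 0.681 for Sox10 and 0.184 to 0.298 for Mbp.

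The question of whether Sox10 moves with the glial genes was put to the 6 libraries directly. Over log2 CPM, the Pearson correlation of Sox10 with Cdh19 was 0.45 (Spearman rho 0.49, n = 6 libraries, exact permutation p = 0.372 and 0.356, 2-sided). Sox10 correlated with Mbp at r = 0.17 (exact p = 0.751), with Ngfr at r = 0.35 (exact p = 0.507) and with Foxd3 at r = 0.13 (exact p = 0.778). Spearman rho was 0.14 for each of these 3 genes, with an exact p = 0.803. With S100b r was 0.85 (exact permutation p = 0.0306, rho 0.83, exact p = 0.0583). None of the 5 relations passed after adjustment over the 5: the adjusted p was 0.153 for S100b and 0.778 for each of the others (for rho 0.292 and 0.803).

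Leaving out Vim KO 2 and WT 2, the libraries farthest from the median of Sox10, also narrows the range of Sox10; r was then -0.40 for Cdh19, -0.33 for Mbp, 0.45 for S100b, 0.05 for Ngfr and -0.44 for Foxd3. Each experiment holds 3 libraries, too few for a correlation of its own. Over deviations from the mean of each experiment r was 0.49 for Cdh19, 0.59 for Mbp, 0.87 for S100b, 0.03 for Ngfr and 0.42 for Foxd3, with an exact permutation adjusted p from 0.139 to 0.944. With 36 pairings the smallest exact permutation p possible is 0.0278, which is the value of S100b. No single relation could therefore have passed the adjustment here. S100b had 5 to 37 counts per library, so counting error is part of its spread. An absence of a relation is not shown by 6 libraries.

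**Figure D2:**
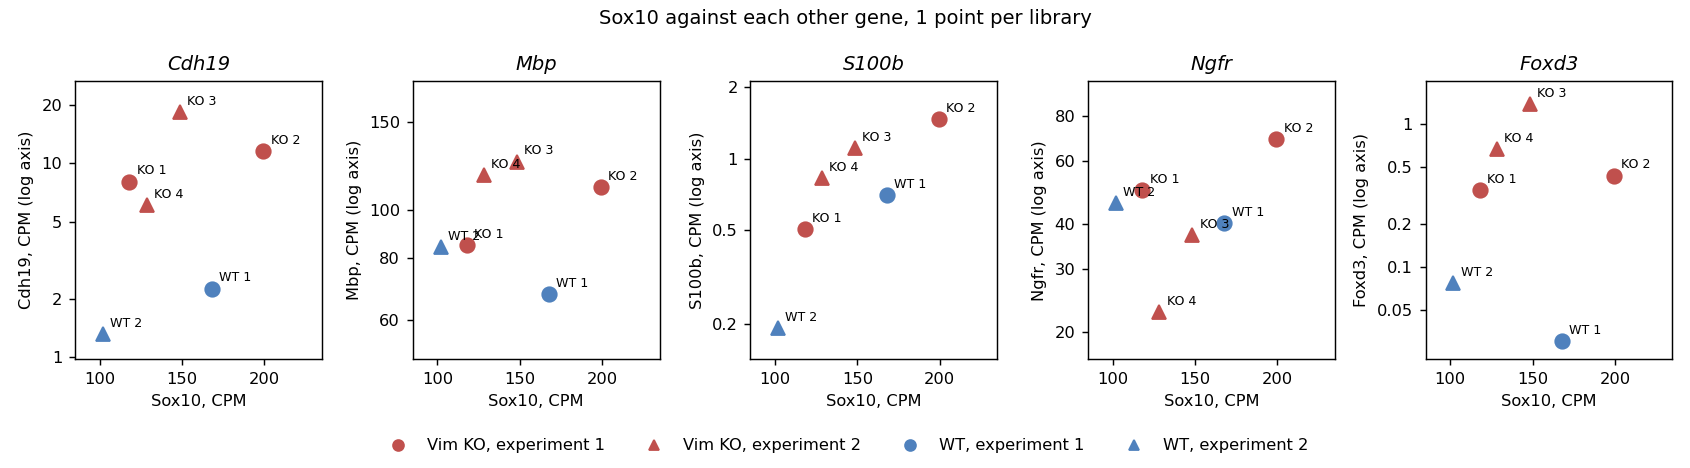
Level of each other gene (vertical axis, CPM, log axis) against that of Sox10 (horizontal axis, CPM), 1 point per library, red for Vim KO and blue for WT, circles for experiment 1 and triangles for experiment 2. WT 1 had the second highest Sox10, at 168 CPM, beside the second lowest Cdh19, at 2.25 CPM, and S100b had the highest correlation with Sox10 (r = 0.85, adjusted p = 0.153).

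Other genes of Schwann cells were taken from 2 lists, which also hold the 6 genes; since the levels of those 6 were known when they were chosen, the counts here leave them out. Of 17 other tested myelin genes, 16 had a log2 fold change above 0, Drp2 being the exception, with a median of 0.80. Of 15 other tested genes of immature and non-myelinating Schwann cells, 10 were above 0, with a median of 0.51. Over all 13925 genes 6626 were above 0 and the median was -0.01. The genotype test called 0 of these 32 genes, and 8 had an unadjusted p under 0.05, against 8.57% of all genes. DESeq2 called 3 (Cadm2, Mal and Ednrb), against 1.92% of all genes, and edgeR with experiment as a replicate block called 1 (Ednrb), against 1.56%. All 4 Vim KO libraries lay above both WT libraries for 8 of the 32 and below them for 2, against 7.6% and 8.57% of all genes. Some of the 32, such as Gjc3 (15 and 5 wild-type counts), Mag (18 and 8) and Cadm2 (26 and 9), cleared the low-count filter with the help of knockout libraries. The counts over the 32 are therefore a description. With a library left out the median of the whole myelin list, Mbp included, ran from 0.46 to 1.18, and was 0.72 with all libraries. The 0.46 was without Vim KO 2 or without Vim KO 3, where 16 genes of the list passed the filter. The 1.18 was without WT 1, where 18 passed, as with all libraries, so these medians do not cover the same genes.

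The myelin genes that stood farthest apart were low in level. Gjc3, a connexin of myelinating glia, had 28, 34, 67 and 22 counts in Vim KO 1 to 4, against 15 and 5 counts in WT 1 and WT 2 (edgeR log2 fold change 2.00, SE 0.60, adjusted p = 0.356). Mal, a proteolipid of myelin and of apical epithelial membranes, had 6.57, 8.34, 9.94 and 5.16 CPM in Vim KO, against 3.47 and 0.808 CPM in WT (1.79, SE 0.53, adjusted p = 0.355). For both genes the groups did not overlap and Vim KO 3 was highest.

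Mag, an adhesion protein of the inner myelin wrap, had 31, 36, 67 and 20 counts in Vim KO 1 to 4, against 18 and 8 counts in WT 1 and WT 2 (edgeR log2 fold change 1.64, SE 0.56, adjusted p = 0.432). Cadm2, a cell adhesion molecule of the immunoglobulin family, had 60, 81, 136 and 53 counts in Vim KO, against 26 and 9 counts in WT (2.34, SE 0.53, edgeR adjusted p = 0.225). Art3, an ADP-ribosyltransferase family gene of the list, had 56, 71, 108 and 31 counts in Vim KO and 44 and 25 counts in WT. Mag and Cadm2 did not overlap between genotypes in CPM, Art3 did, and for all 3 genes Vim KO 3 was the highest library and Vim KO 2 the second highest. Of the 32 list genes other than the 6, 25 had their highest level in one of these 2 libraries, or 78.1%, against 30.3% of all tested genes. The 2 libraries were singled out from the levels of list genes that are in this count, Mag, Cadm2 and Art3 among them. Nothing is therefore read from the share.

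Pmp22, a membrane protein of compact myelin that epithelia also make, had the same 2 highest libraries, with 92.2 CPM in Vim KO 3 and 87.6 CPM in Vim KO 2. It was at 74.4 ± 17.9 CPM (SD, n = 4) in Vim KO and 66.4 ± 1.82 CPM (SD, n = 2) in WT. The genotypes overlapped, with 58.5 CPM in Vim KO 1. Other list genes, Egr2, Scn7a and Ednrb among them, did not have Vim KO 3 highest and Vim KO 2 second. Egr2, the zinc-finger partner of SOX10 in myelination and also an immediate early gene, had 98.7, 179, 86.9 and 84.4 CPM in Vim KO 1 to 4, against 141 and 68.8 CPM in WT 1 and WT 2. Vim KO 2 and WT 1 were its high libraries, as for Sox10, and its correlation with Sox10 over the 6 libraries was 0.91. Scn7a, a sodium channel of non-myelinating Schwann cells, was at 169, 214, 306 and 240 CPM in Vim KO and 110 and 194 CPM in WT. It was the 1 gene called between experiments among the 38 tested genes of both lists (edgeR log2 difference, experiment 2 minus experiment 1, 0.62, SE 0.13, adjusted p = 0.026), against 6.43% of all genes. Ednrb, the endothelin receptor of neural crest cells and of endothelium, had 2.07, 2.05, 2.32 and 1.30 CPM in Vim KO and 10.98 and 3.77 CPM in WT (-1.93, SE 0.41, adjusted p = 0.204, or 0.0335 with experiment as a replicate block). The summed level of 12 endothelial markers was 17.0 to 24.3 CPM per kilobase in Vim KO and 31.3 to 80.4 in WT, with WT 1 highest as for Ednrb. Of the 12, 10 lay below both WT libraries in all 4 Vim KO libraries, against 8.57% of all genes. The part of endothelial cells in the values of Ednrb was not tested.

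**Figure D3:**
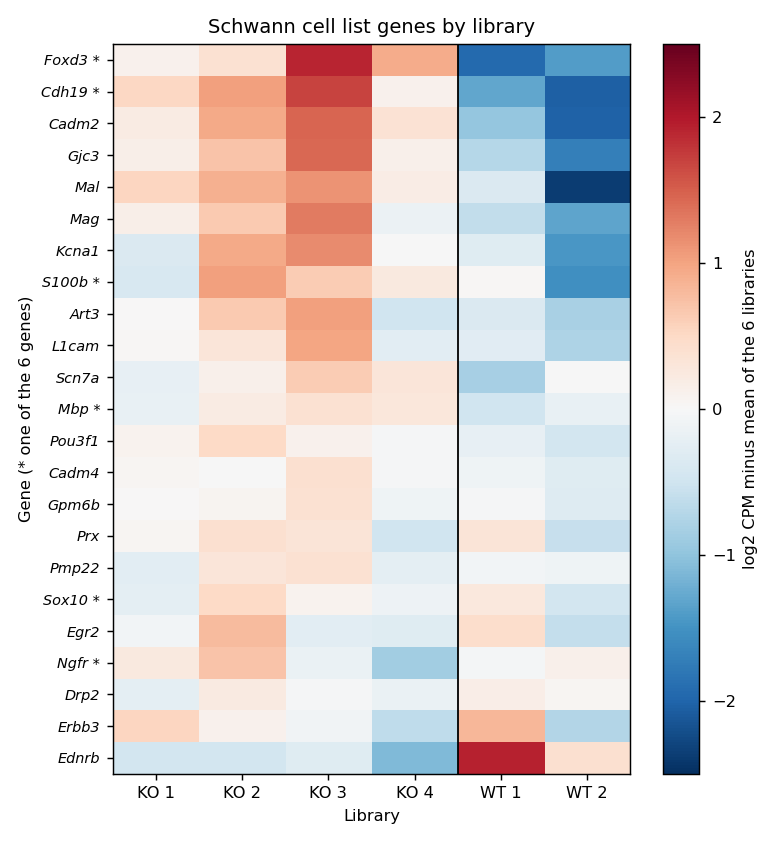
Row-centred log2 CPM of 23 of the 38 tested genes of the 2 Schwann cell lists, those named in the text (rows, ordered by log2 fold change; asterisks mark the 6 genes), in the 4 Vim KO and 2 WT libraries (columns). The upper rows, from Foxd3 to Mag, are warmest in Vim KO 3 and cool in both WT libraries, whereas Sox10, Egr2 and Ngfr lie below them with smaller differences.

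Sox10 ran far above Cdh19 in every library, as ratios within a library, which do not depend on its scaling, show. Per kilobase its level was 16.5, 19.4, 9.09 and 23.8 times that of Cdh19 in Vim KO 1 to 4, against 84.0 and 87.7 times in WT 1 and WT 2. The lowest ratio was in Vim KO 3, the library with the highest Cdh19 and Foxd3, and the WT ratios lay above all 4 Vim KO ratios.

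The genes with the pattern most like each of the 2 were found over the 11298 tested genes whose mean log2 CPM was 1 or more, by Pearson r over the 6 libraries. For Sox10 they were Rfx1 (r = 0.99), 1500010J02Rik (0.99), Hic2 (0.99), Thada (0.99) and Galnt7 (0.98), none of which is on a glial list. For Cdh19 they were 2610019F03Rik (r = 0.996), Abca8a (0.99), Col28a1 (0.99), Sgk3 (0.99) and Rnf220 (0.99), and none of these is on a glial list either. Rnf220 varied little, from 43.9 CPM in WT 2 to 52.4 CPM in Vim KO 3. Col28a1, a collagen known from peripheral nerve, had 3.46, 5.14, 9.44 and 2.83 CPM in Vim KO 1 to 4, against 1.40 and 0.808 CPM in WT 1 and WT 2. With 6 libraries and this many genes high values of r are common: 5.81% of genes had r over 0.8 with Sox10 and 3.78% with Cdh19. Of 22 Schwann list genes in that comparison, 2 exceeded 0.8 with Sox10 (Prx and Egr2) and 7 with Cdh19 (among them Mal, Cadm4, L1cam, Pou3f1, Gpm6b and Kcna1). These 22 include members, Mbp and Ngfr among them. Over all libraries, r with Cdh19 also takes in its gap between genotypes, which was known when the genes were chosen. Nothing is therefore read from the count for Cdh19.

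Among the SOX genes Sox10 stood beside Sox4 and Sox9 as 1 of 3 abundant members. Averaged over libraries Sox4 was at 155, Sox9 at 54.7 and Sox10 at 53.1 CPM per kilobase, and Sox8, the other SOXE gene, was at 3.03. Sox9, a regulator of mammary stem and luminal progenitor cells, had 216, 276, 227 and 251 CPM in Vim KO 1 to 4, against 190 and 199 CPM in WT 1 and WT 2 (edgeR log2 fold change 0.32, SE 0.13, adjusted p = 0.543). Sox30, a factor of male germ cells, had 13, 6, 18 and 10 counts in Vim KO 1 to 4, against 2 and 2 counts in WT 1 and WT 2 (2.53, SE 0.71, edgeR adjusted p = 0.317). Sox5 was at 2.65 ± 0.191 CPM (SD, n = 4) in Vim KO and 4.19 ± 1.30 CPM (SD, n = 2) in WT (-0.66, SE 0.26, edgeR adjusted p = 0.520). Of 15 tested SOX genes 9 were above 0 and 6 below, with a median of 0.14. With edgeR, the replicate block and DESeq2 0 were called by genotype, against 0.079%, 1.56% and 1.92% of all genes. Sox4 was the 1 of the 15 called between experiments (0.57 higher in experiment 2, SE 0.11, edgeR adjusted p = 0.0161), where 6.43% of all genes were called.

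For Ngfr, the ligands and partners were read from a list of 14 tested neurotrophin genes. Ntf3, which encodes neurotrophin-3, had an edgeR log2 difference of 0.82 with SE 0.38 and adjusted p = 0.608. For Sorcs2, a sortilin-family receptor that partners p75, it was -0.47 with SE 0.22 and adjusted p = 0.614. The most abundant of the list per kilobase were Maged1, at 133 CPM per kilobase with a log2 fold change of -0.0047, and Ngfrap1, at 44.3. Of the 14 genes 8 were above 0 and 6 below, with 0 called by genotype with edgeR, against 0.079% of all genes. Ngfrap1, an interactor of the p75 death domain, was the 1 of the 14 called between experiments (-0.53, SE 0.10, edgeR adjusted p = 0.0177), against 6.43% of all genes.

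Promoter sequence was matched for 3 of the 6 genes, Foxd3, S100b and Ngfr, in the RefSeq table of build GRCm38.p6. The 250 bases before the start are shown for S100b and Foxd3, the genes with the highest and the lowest r with Sox10. They were searched on both strands for the SOX core letters ACAAAG and ACAAT, which do not overlap each other; ACAAAG is found in 16.5% and ACAAT in 27.7% of 32851 such windows. Neither was found in these 2 windows or in that of Ngfr, which says only that the letters are not in them, and no base is in capitals.
S100b, chr10:76253586-76253835, plus strand: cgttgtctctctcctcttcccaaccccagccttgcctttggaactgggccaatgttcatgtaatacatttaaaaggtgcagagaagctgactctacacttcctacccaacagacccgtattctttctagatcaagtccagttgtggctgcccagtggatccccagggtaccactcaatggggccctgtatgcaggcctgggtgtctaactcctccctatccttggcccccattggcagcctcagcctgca
Foxd3, chr4:99656049-99656298, plus strand: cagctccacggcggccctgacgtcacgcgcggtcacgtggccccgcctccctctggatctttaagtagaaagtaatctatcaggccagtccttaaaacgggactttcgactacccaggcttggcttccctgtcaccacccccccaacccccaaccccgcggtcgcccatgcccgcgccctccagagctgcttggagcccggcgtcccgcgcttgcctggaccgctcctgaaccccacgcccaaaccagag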

How the data were processed

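The authors deposited raw read counts per gene, made with featureCounts 1.5.1 over exons of the UCSC mm10 annotation in the reverse-stranded setting (option 2), per the file headers. Alignment used STAR 2.5.2b and base calls bcl2fastq 2.17, per the submitters' processing notes. None of the 6 genes shares exons with another listed gene.

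Counts of the 6 libraries were scaled by TMM and tested with edgeR 4.0.16 in R 4.3.3 (filterByExpr, glmQLFit robust, glmQLFTest, 2-sided, Benjamini-Hochberg over 13925 genes). Log2 CPM used a prior count of 2. Fold changes are Vim KO minus WT, and list members are described by counts and medians without a set test. Alternatives were DESeq2 1.42.0, limma-voom (limma 3.58.1), other scalings and filters, each library left out, and experiment as a replicate block. Permutation tests of a correlation enumerated all 720 pairings, or all 36 within experiments and 48 within genotypes for the deviations. With 36 or 48 pairings, a single relation could not pass the adjustment, whatever its r.

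Experiment was read from day codes in the file names and used only as a batch. Of the deviations from group means, the correlation was 0.25 to 0.41 between WT and Vim KO libraries of an experiment and -0.41 to -0.25 across experiments; with 2 WT libraries these values mirror each other. The labels give a pool of 2 to 3 mice per library and do not say how separate the libraries of a group were, so p-values measure the spread between these libraries. Counts of Vim KO 3 and Vim KO 4 were closer to each other (chi-square over degrees of freedom 11.1) than those of any other Vim KO pair (40.3 to 51.0). The reason was not tested.

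The 6 genes and the lists were chosen with earlier results of these data known. Genes were named as the members and Vim, and from each list the 2 highest and the 2 of smallest p. The 5 genes most alike to Sox10 and to Cdh19 and list genes called in any fit were also named. For lists of other cell types, summed levels are given instead. Mcam, Lcn2, Areg, Dcn, Cd74 and Fabp4 are named beside the sums of which they made most. Art3, Mag, Cadm2, Drp2, Sox8, Erbb3, Krt14 and Trp63, and the list genes named only in a count, were named after their values were seen. Of 20, 23 and 16 listed myelin, Schwann cell and neurotrophin genes, 19, 22 and 15 were in the files under the listed symbol. Results of some list genes are not reported here.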

Additional observations from a re-analysis of the deposited data

Results flagged for a closer look

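Ngfr was singled out because all Vim KO libraries of experiment 1 lay above the WT library of their experiment and all of experiment 2 below it. The levels were 49.8 and 68.8 CPM in Vim KO against 40.3 CPM in WT in experiment 1, and 37.3 and 22.7 CPM in Vim KO against 45.7 CPM in WT in experiment 2. The log2 difference between Vim KO and WT was 0.54 in experiment 1 and -0.65 in experiment 2, so that the experiments differed by -1.19. The interaction of genotype and experiment did not pass for Ngfr (edgeR adjusted p = 0.998), with 0 of 13925 genes called, 586 (4.21%), Ngfr among them, at an unadjusted p under 0.05 and 11 called by DESeq2. Each experiment has 1 WT library, so the spread of WT within an experiment is not known.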

How the results depend on the processing

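The genotype test called 11 genes, 262 with DESeq2, 217 with experiment as a replicate block and 12 with the title number as a replicate block over WT 1, WT 2, Vim KO 1 and Vim KO 2. The title numbers did not pair the libraries (r = 0.32 and -0.29 for the 2 pairs), and the experiment block changed the call of Foxd3 alone among the 6 genes, with a log2 fold change of 3.604. With a library left out 3 to 15 genes were called, with 4 without WT 1, 3 without Vim KO 3 and 5 without Vim KO 2 or Vim KO 4, and 0 of the 6 genes in each case. Left-out ranges of the log2 fold change were -0.18 to 0.56 for Sox10, 2.25 to 3.09 for Cdh19, 0.40 to 0.70 for Mbp, 0.47 to 2.33 for S100b, -0.21 to 0.27 for Ngfr and 3.11 to 4.36 for Foxd3, and Foxd3 was at 2.82 with the title number as a replicate block. Other scalings, no filter, DESeq2 and limma-voom moved the fold change of each of the 6 genes by less than the spread between replicates; that of Ngfr, near 0, was -0.05 with limma-voom and with the experiment block. The test of experiment called 895 genes, 1473 with DESeq2 and 38 to 1838 with a library left out (38 without WT 1, 42 without WT 2, 120 without Vim KO 4, 482 without Vim KO 3 and 1838 without Vim KO 1), and the interaction test 0, 11 with DESeq2 and 3 to 371 with a Vim KO library left out. Left-out ranges of r with Sox10 were -0.0062 to 0.73 for Cdh19, -0.060 to 0.65 for Mbp, 0.75 to 0.91 for S100b, -0.22 to 0.56 for Ngfr and -0.25 to 0.53 for Foxd3. Over deviations from the mean of each genotype, an alternative added after the data were seen, r was -0.015 for Mbp and -0.15 for Foxd3 (exact permutation adjusted p = 0.979 for both), 0.61 for Cdh19 and 0.96 for S100b (adjusted p = 0.729 and 0.208). The cause of these shifts was not tested. Depth limits Foxd3 and S100b, which had 1 to 41 and 5 to 37 counts per library.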

Other observations

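Of the neuregulins, growth factors that drive Schwann cells through ERBB3 and ERBB2, Nrg1 and Nrg2 were present in the basal cell libraries and Nrg3 had no count. Nrg1 was at 259 ± 55.6 CPM (SD, n = 4) in Vim KO and 414 ± 111 CPM (SD, n = 2) in WT, lower in 4 of 4 Vim KO libraries, a log2 difference of -0.68 (SE 0.23, adjusted p = 0.418 in edgeR). Erbb3, a known target of SOX10 in glia, had 30.97, 22.9, 20.02 and 13.7 CPM in Vim KO 1 to 4, against 37.8 and 12.8 CPM in WT 1 and WT 2. Erbb2 was at 80.2 ± 18.7 CPM (SD, n = 4) in Vim KO and 78.6 ± 4.63 CPM (SD, n = 2) in WT, and Erbb4 at 0.365 ± 0.234 CPM in Vim KO and 0.590 ± 0.146 CPM in WT. Of the 6 tested genes of this list 0 were called by genotype with edgeR, the replicate block or DESeq2, against 0.079%, 1.56% and 1.92% of all genes. Nrg4 was the 1 of the 6 called between experiments, lower in experiment 2 (-3.43, SE 0.68, edgeR adjusted p = 0.0183), against 6.43% of all genes.

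Per kilobase of exon, S100b was the lowest of the tested S100 genes in these cells. Averaged over libraries, S100a10 was at 560 and S100a6 at 462 CPM per kilobase, where S100b was at 0.481. S100a10 was at 336 ± 41.4 CPM (SD, n = 4) in Vim KO and 419 ± 57.3 CPM (SD, n = 2) in WT, and S100a1 at 29.0 ± 2.93 CPM in Vim KO and 36.5 ± 6.75 CPM in WT (edgeR adjusted p = 0.618 and 0.604). Of 13 tested S100 genes 4 had a log2 fold change above 0 and 9 below, with a median of -0.21. With edgeR, the replicate block and DESeq2 0 were called by genotype, against 0.079%, 1.56% and 1.92% of all genes.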
